A study of Mus musculus with 13 samples.

Results

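TGF-β signalling genes were followed in sorted mouse eosinophils as a set of 10 genes of 41743 in the expression table. They were chosen by name from the pathway that is known to induce CD103, with earlier results of these data known, and every member was found. The members were Tgfb1 (the ligand), Tgfbr1 and Tgfbr2 (the receptors), Smad2, Smad3 and Smad4 (the signal carriers), Smad7 and Skil (the feedback inhibitors), Tgfbi (an induced target) and Runx3 (a transcription factor that works with Smad proteins). Eosinophils were sorted as CD11b+ Siglec-F+ cells from the thymus, spleen and lung of untreated adult wild type (WT) mice of the C57BL/6N strain, with 3 libraries per organ. They were also sorted from the thymus of adult Rag-KO mice on the same background, with 2 libraries per treatment, taken on day 10 after an injection of hamster IgG (Rag-KO + control) or of an antibody to CD3 (Rag-KO + anti-CD3). Thymocytes of Rag-KO mice stop at the double negative stage, and anti-CD3 drives them on to the double positive stage, so these groups ask whether gene expression in thymic eosinophils goes with thymocyte development. Rag-KO + control replicate 1 and both anti-CD3 libraries were Rag2-/-, whereas Rag-KO + control replicate 2 was Rag1-/-, so that the genotypes are mixed in the control group. Cells were freed from thymus and lung by enzymes and from spleen by mashing, so that organ and preparation cannot be told apart where spleen is compared.

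TGF-β1 is secreted in a latent form and, once released, binds a type II receptor, which recruits and phosphorylates a type I receptor. The type I receptor phosphorylates Smad2 and Smad3, which join Smad4 and act in the nucleus on target genes, often with partners such as Runx proteins. Smad7 and SnoN, the protein of Skil, are induced by the pathway and restrain it, and in T cells the pathway is known for inducing CD103, the integrin chain encoded by Itgae.

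Promoter windows from 250 bases before to 50 bases after a gene start were found in RefSeq for 6 of the 10 members (8 windows, GRCm38.p6). The windows were searched on both strands for the SMAD box CAGAC, present in 49.6% of all 32851 promoter windows of this length, the palindromic SMAD element GTCTAGAC, which contains no full box (0.213%), the AP-1 site TGANTCA (7.81%) and the RUNX site TGTGGT (16.8%). The windows of Tgfbr1 are shown because its level differed most between eosinophil groups among the receptors, and the downstream window of Runx3 because it held the rare palindrome. Capitals mark the motif letters. The first Tgfbr1 window is chr4:47352972-47353271 (+ strand), the second is chr4:47385966-47386265 (+ strand), and the Runx3 window is chr4:135152295-135152594 (+ strand).
Tgfbr1, first window: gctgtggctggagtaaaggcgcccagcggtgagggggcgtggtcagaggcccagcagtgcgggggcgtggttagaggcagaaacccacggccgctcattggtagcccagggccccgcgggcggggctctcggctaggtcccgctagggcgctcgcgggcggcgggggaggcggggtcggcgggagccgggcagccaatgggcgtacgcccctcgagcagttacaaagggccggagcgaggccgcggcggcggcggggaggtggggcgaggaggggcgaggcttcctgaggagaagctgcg
Tgfbr1, second window: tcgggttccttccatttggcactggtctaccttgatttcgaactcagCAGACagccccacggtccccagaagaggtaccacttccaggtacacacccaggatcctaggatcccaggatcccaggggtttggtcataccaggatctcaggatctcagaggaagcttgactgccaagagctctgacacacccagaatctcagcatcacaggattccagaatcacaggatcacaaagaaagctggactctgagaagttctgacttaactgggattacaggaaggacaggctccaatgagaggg
Runx3, second window: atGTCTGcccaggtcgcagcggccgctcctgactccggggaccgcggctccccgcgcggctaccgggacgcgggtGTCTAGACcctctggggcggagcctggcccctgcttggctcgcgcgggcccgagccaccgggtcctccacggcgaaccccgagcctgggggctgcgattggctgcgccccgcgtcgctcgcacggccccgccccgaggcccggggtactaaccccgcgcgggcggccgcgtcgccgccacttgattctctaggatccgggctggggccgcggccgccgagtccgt
The first Tgfbr1 window held none of the 4 motifs and the second held 1 SMAD box, at position -203 from the start. The Runx3 window held 1 SMAD box at -248 and the palindrome at -175. The other Runx3 window held 2 SMAD boxes and 2 RUNX sites. The Tgfbi window held 2 SMAD boxes and that of Tgfbr2 held 1, and the windows of Tgfb1 and Smad3 held none of the motifs. A match describes these letters and does not show a bound site.

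The 13 libraries held 4765122 to 6431540 reads, and values are RPKM, a level scaled to transcript length and to library size. Replicates are not stated to be separate mice, so the p-values below measure the spread between these libraries, which may be technical. All 9 eosinophil markers checked, among them Ccr3, Siglecf and Epx, were above 0 in each library, with summed levels of 1796 to 7550 RPKM. The highest sum was that of Rag-KO + control replicate 2, against 3368 in replicate 1. Control libraries spanned 188 to 3648 RPKM of Prg2, 7.64 to 340 of Epx and 34.6 to 662.5 of Ear1, where WT thymus held at most 925, 6.01 and 17.5. Ear2 and Ear6 also spanned widely in control. Il5ra and Alox15 spanned less, and Ccr3 (608 to 625) and Siglecf (381 to 415) least. Rag1 and Rag2 were too low for a check of the genotypes, at 0.0240 RPKM of Rag1 in the Rag1-/- library and 0.0492 to 0.222 RPKM of Rag2 in the Rag2-/- libraries, and were at 0 in all WT spleen and lung libraries. Genes of the mitochondrial genome made up 22.0% of all RPKM in WT spleen replicate 3 and 1.60 to 6.02% elsewhere. WT thymus replicate 3, WT lung replicate 3 and Rag-KO + control replicate 2 deviated from their groups in the same direction as WT spleen replicate 3 (correlation of deviations across genes 0.57, 0.42 and 0.46). In each of their groups these 4 libraries held the highest summed level of 8 neutrophil markers (2335, 25600, 772 and 3764 RPKM in WT thymus, WT spleen, WT lung and Rag-KO + control) and of 12 macrophage and monocyte markers. They are called the deviating libraries below. A difference within them compares 1 library with 1. Without them, 2 libraries are left in each WT organ and 1 in Rag-KO + control, where the split is also one of Rag2-/- and Rag1-/-.

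Smad7 was higher in WT thymic eosinophils than in those of both other organs, Skil was higher than in spleen, and Tgfbr1 was higher than in lung. In thymic eosinophils of Rag-KO + control mice, Tgfbr1 and Smad7 were lower than in WT thymus. The ligand, the type II receptor, the Smad2, Smad3 and Smad4 carriers, Tgfbi and Runx3 passed the test in none of the 6 comparisons. Calls rest on limma with Benjamini-Hochberg adjustment over all genes tested, at an adjusted p under 0.05 together with a difference above 1 in size on the log2(RPKM + 1) scale, the scale of every log2 difference below. All 10 members passed the filter on low values. Thymus against spleen gave 2 called members, beside 2.29% of the 9096 genes tested, and thymus against lung gave 2, beside 3.24%. Lung against spleen gave 0, beside 0.704%. For Rag-KO + control against WT thymus 2 members were called, beside 1.09% of 9763 genes. None was called for Rag-KO + anti-CD3 against Rag-KO + control (0.133% of genes) or against WT thymus (0.0819%). Beside these counts of 0, Tgfbr1 alone had an unadjusted p under 0.05 by limma for lung against spleen (1 member). Tgfbr1 and Smad7 did for anti-CD3 against control (2 members) and none for anti-CD3 against WT thymus (0 members). The share of all genes under this limit was not counted. Voom on the recovered reads called 0 members in each of the 3, but only 44, 0 and 3 of all genes. With so few calls, a count of 0 cannot show that the members did not differ.

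**Figure D1:**
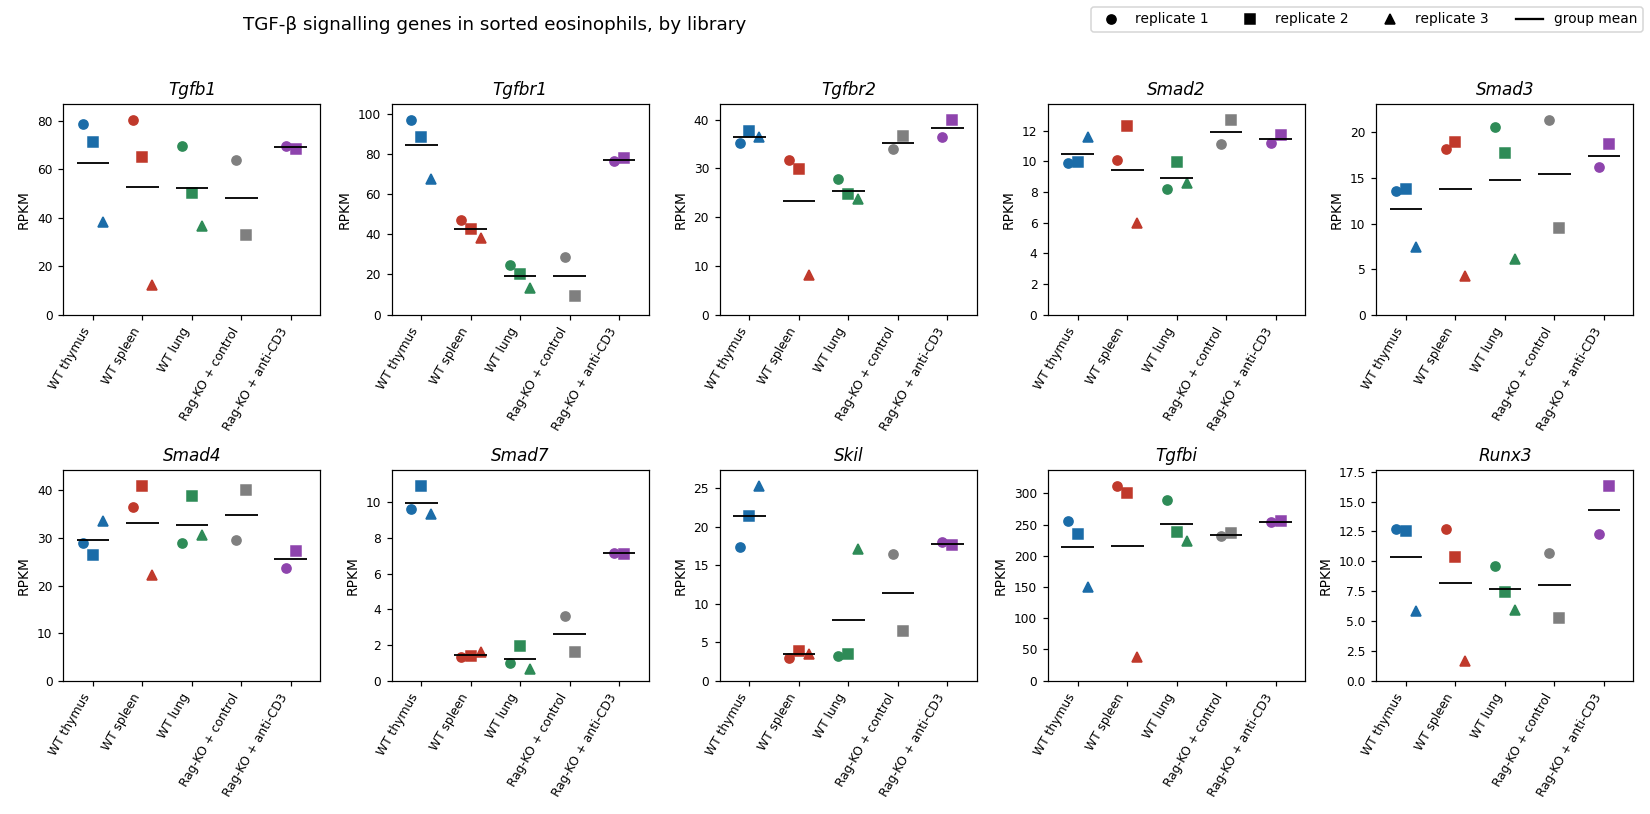
RPKM of the 10 genes (vertical axes, linear, from 0) in each of the 13 libraries, by group (horizontal axes), with symbols for replicate numbers and a bar at the group mean. Smad7 lies between 9.37 and 10.9 RPKM in WT thymus and at most at 1.96 RPKM in WT spleen and lung, and the triangles of WT spleen replicate 3 lie low for Tgfb1, Tgfbr2, Tgfbi and Runx3.

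Tgfb1, the ligand (chromosome 7), was at 78.5, 71.2 and 38.2 RPKM in WT thymus replicates 1 to 3, at 80.4, 65.0 and 12.4 in WT spleen and at 69.5, 50.3 and 36.6 in WT lung. Rag-KO + control libraries held 63.9 and 32.8 RPKM, and anti-CD3 libraries 69.7 and 68.5. The low values came from the deviating libraries in every group that had one, and groups next to each other in order of mean overlapped. The difference of thymus from spleen was 0.55 on the log2 scale (95% interval -0.86 to 1.96, adjusted p = 0.747 by limma) and that from lung 0.24 (-1.17 to 1.65, adjusted p = 0.928). Both intervals reach beyond the limit of 1. Of the 59 other pathway genes looked at, 7 were further ligands of the family. Only Bmp2 of these passed the filter on low values, and its 13-library mean was 1.70 RPKM. Tgfb3, Tgfb2 and Inhbb, the next in level, averaged 0.0756, 0.0355 and 0.0234 RPKM, all far below every Tgfb1 value.

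Tgfbr1 encodes the type I receptor, the kinase that phosphorylates Smad2 and Smad3 (chr4:47353222-47414931, + strand, in the annotation for mm10). WT thymus replicates 1 to 3 held 96.8, 88.4 and 67.6 RPKM, WT spleen 47.0, 42.6 and 38.1, and WT lung 24.8, 20.1 and 13. In Rag-KO + control the values were 28.6 and 9.38 RPKM, and in anti-CD3 76.6 and 77.7. Every thymus library of WT and anti-CD3 mice thus lay above every other library, spleen lay above lung, and the control libraries overlapped with lung. The WT thymus mean was 84.3 ± 15 RPKM (SD, n = 3) and that of lung 19.3 ± 5.96 (SD, n = 3), a ratio of 4.36, and the log2 difference was 2.10 (standard error 0.29, 95% interval 1.45 to 2.75, adjusted p = 0.00392 by limma). It was 2.0 without the deviating libraries and 2.29 within them. Thymus against spleen did not pass, at 0.96 (0.31 to 1.61, adjusted p = 0.177), though the libraries did not overlap. It passed without the deviating libraries (1.03, adjusted p = 0.00133). That set was picked from these same data, and its removal moved the calls over all genes from 208 to 506. Lung against spleen did not pass either, at -1.14 (-1.79 to -0.49, adjusted p = 0.226).

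In Rag-KO + control mice Tgfbr1 fell to 19.0 ± 13.6 RPKM (SD, n = 2), 0.225 times the WT thymus mean. The log2 difference was -2.27 (standard error 0.41, 95% interval -3.15 to -1.38, adjusted p = 0.0195 by limma). It was -1.66 between libraries that did not deviate (1 control, Rag2-/-, against 2 of WT thymus) and -2.73 between those that did (1 control, Rag1-/-, against 1). The call was lost without WT thymus replicate 1 (adjusted p = 0.0965 by limma) and without WT thymus replicate 2 (0.0888). Calls over all genes also fell in these fits, from 106 to 39 and 41. It was lost as well without Rag-KO + control replicate 2, the Rag1-/- library, which leaves 1 control library (log2 difference -1.51). Without Rag-KO + control replicate 1 the log2 difference was -3.02. Macrophage and monocyte markers summed to 696 and 3454 RPKM in the control libraries (11 of 12 above 0, Marco at 0), against 189 to 439 in WT thymus and 319 to 372 in anti-CD3. The 8 dendritic cell markers summed to 108 to 119 RPKM in control (5 to 7 above 0, Clec9a at 0), 28.4 to 44.2 in WT thymus and 158 to 314 in anti-CD3. H2-Ab1, H2-Aa and Cd74 made up nearly all of these sums. Flt3, Xcr1 and Siglech were at most 0.398 RPKM in control, and Zbtb46 was lower there (0.0238 to 0.0760 against 0.0831 to 0.562 in WT thymus). The 8 neutrophil markers summed to 988 and 3764 RPKM in control, 476 to 2335 in WT thymus and 64.2 to 198 in anti-CD3. Among them Ltf was higher in control than in WT thymus without overlap, Cxcr2 was lower (2.49 to 4.58 against 15.4 to 28.7) and the others overlapped. The part of RNA from other cell types in the control levels of Tgfbr1 and Smad7 was not tested. Anti-CD3 libraries lay at 77.2 ± 0.817 RPKM (SD, n = 2), 4.06 times the control mean, with a log2 difference of 2.16 (1.19 to 3.13) that did not pass over all genes (adjusted p = 0.121). With a term for the deviating libraries this difference was 1.82 and passed (adjusted p = 0.0445 by limma). That set was picked from these same data, and the term moved the calls over all genes from 13 to 29. Fits that leave 1 control library gave 1.40 without the deviating libraries or without Rag-KO + control replicate 2 alone. Without Rag-KO + control replicate 1 the log2 difference was 2.91. Against WT thymus the anti-CD3 level differed by -0.11 (-0.99 to 0.77, adjusted p = 1).

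Tgfbr2, the type II receptor that binds the ligand (chromosome 9), stood at 35.2, 37.7 and 36.5 RPKM in WT thymus, 31.8, 29.9 and 8.13 in spleen and 27.8, 24.7 and 23.8 in lung. Rag-KO + control libraries held 34.0 and 36.7 RPKM and anti-CD3 libraries 36.6 and 40.0. Thymus libraries of all 3 groups overlapped with each other and lay above all spleen and lung libraries, by as little as 34.0 against 31.8 RPKM. The test did not pass in any comparison. Thymus against spleen gave a log2 difference of 0.84 (-0.16 to 1.83, adjusted p = 0.512 by limma), which was 0.23 without the deviating libraries and 2.04 within them, and thymus against lung gave 0.51 (-0.49 to 1.5, adjusted p = 0.699). The differences between Tgfbr1 and Tgfbr2 in these comparisons were not tested. Among 10 other receptors and co-receptors, 5 passed the filter. The highest was Bambi, a pseudoreceptor that blocks the type I receptor, at 5.33 to 11.9 RPKM in WT thymus, 0.425 to 0.786 in spleen and 0.955 to 10.4 in lung (thymus against spleen 2.37, adjusted p = 0.0724). The activin receptors Acvr1b and Acvr2a averaged 1.58 and 1.22 RPKM over all libraries.

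Smad2, which carries the signal to the nucleus (chromosome 18), was measured at 9.89, 9.93 and 11.6 RPKM in WT thymus, 10.1, 12.3 and 5.97 in spleen and 8.20, 9.97 and 8.61 in lung, with 11.1 and 12.7 in Rag-KO + control and 11.2 and 11.7 in anti-CD3. All neighbouring groups overlapped, and the log2 differences ran from -0.05 to 0.21. Smad4, the partner of the receptor-activated Smads (chromosome 18), was higher per length, at 29.0, 26.4 and 33.7 RPKM in WT thymus, 36.5, 41.0 and 22.1 in spleen, 28.9, 38.8 and 30.7 in lung, 29.6 and 40.2 in Rag-KO + control and 23.8 and 27.3 in anti-CD3. Its groups overlapped in the WT organs, and the 2 anti-CD3 libraries lay below both control libraries (log2 difference -0.42, -1.14 to 0.30, adjusted p = 1 by limma). Smad3, the other carrier that the receptor activates (chromosome 9), was at 13.5, 13.8 and 7.38 RPKM in WT thymus, 18.2, 18.9 and 4.24 in spleen, 20.6, 17.7 and 6.05 in lung, 21.4 and 9.51 in Rag-KO + control and 16.2 and 18.7 in anti-CD3. The lowest Smad3 value of each group that had a deviating library was in that library. Without the deviating libraries the Smad3 difference was -0.42 against spleen and -0.45 against lung, and with all libraries -0.05 (-1.38 to 1.28) and -0.22 (-1.55 to 1.11), so that the sign for thymus against spleen turned positive within the deviating libraries (0.68).

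Of 9 other Smads and Smad adaptors, 6 passed the filter in the WT organs and 7 in the fit of all groups, and none was called in any comparison. Ppm1a, a phosphatase of Smad proteins, Smad1 and Smad5, which carry BMP signals, and Usp15, a deubiquitinase that acts on the receptor and on Smads, averaged 6.76, 5.72, 3.22 and 5.25 RPKM over all libraries.

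Smad7 encodes the inhibitory Smad that binds the activated type I receptor and brings ubiquitin ligases to it (chromosome 18). WT thymus replicates 1 to 3 held 9.62, 10.9 and 9.37 RPKM, spleen 1.33, 1.40 and 1.63, and lung 0.988, 1.96 and 0.647. Rag-KO + control libraries held 3.65 and 1.63 RPKM and anti-CD3 libraries 7.16 and 7.12. The order was WT thymus, then anti-CD3, then control, with no overlap between these 3 groups, while control overlapped with spleen and spleen with lung. The thymus mean of 9.97 ± 0.834 RPKM (SD, n = 3) was 6.86 times that of spleen, 1.45 ± 0.157, and 8.33 times that of lung, 1.2 ± 0.679 (SD, n = 3 each). The log2 differences were 2.16 (standard error 0.27, 95% interval 1.55 to 2.77, adjusted p = 0.00351 by limma) and 2.36 (1.75 to 2.97, adjusted p = 0.00199). They were 2.25 and 2.21 without the deviating libraries and 1.98 and 2.65 within them. Both calls, and that of Tgfbr1 for thymus against lung, held under each of the 23 alternatives run for the WT organs, with adjusted p for Smad7 between 0.000233 and 0.0414 against spleen and between 0.000228 and 0.0226 against lung. Lung differed from spleen by -0.20 (-0.81 to 0.41, adjusted p = 0.933). These low levels rest on few reads, at the lowest 15 in a library.

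In Rag-KO + control Smad7 fell to 2.64 ± 1.43 RPKM (SD, n = 2), 0.265 times the WT thymus mean. The log2 difference was -1.65 (standard error 0.31, 95% interval -2.33 to -0.96, adjusted p = 0.0255 by limma). It was -1.28 between libraries that did not deviate (1 control, Rag2-/-, against 2 of WT thymus) and -1.98 between those that did (1 control, Rag1-/-, against 1). The direction held throughout, but the call was lost without WT thymus replicates 1, 2 or 3 (adjusted p = 0.101, 0.122 and 0.0594 by limma). It was also lost without WT lung replicate 1 (0.051). Calls over all genes went from 106 to 39, 41, 98 and 81 in these fits. The call was lost as well without either anti-CD3 library and without Rag-KO + control replicate 2 (log2 difference -1.24), fits that leave 1 library in a group. Anti-CD3 libraries, at 7.14 ± 0.0344 RPKM (SD, n = 2), stood at 2.71 times the control mean, a log2 difference of 1.22 (0.47 to 1.97) that did not pass (adjusted p = 0.326). Compared with WT thymus they differed by -0.43 (-1.11 to 0.26, adjusted p = 1). The comparisons with control share the control libraries, so that the lower control values enter both.

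Skil encodes SnoN, a repressor that holds Smad complexes inactive at their target genes (chr3:31095058-31122577, + strand). It was at 17.4, 21.3 and 25.3 RPKM in WT thymus, 2.98, 3.83 and 3.44 in spleen and 3.17, 3.47 and 17.0 in lung. Rag-KO + control libraries held 16.4 and 6.48 RPKM and anti-CD3 libraries 18 and 17.6. All thymus libraries of WT and anti-CD3 mice were above all spleen libraries, but WT lung replicate 3 reached 17.0 and lay just under the lowest WT thymus library. The thymus mean of 21.3 ± 3.94 RPKM (SD, n = 3) was 6.25 times that of spleen, 3.41 ± 0.426 (SD, n = 3), with a log2 difference of 2.33 (standard error 0.51, 95% interval 1.19 to 3.46, adjusted p = 0.0492 by limma). The call was close to the threshold and was lost under 16 of 23 alternatives, with a log2 difference between 2.03 and 2.63 in all of them. Among these were the fits without WT thymus replicates 1, 2 or 3 (adjusted p = 0.174, 0.22 and 0.219 by limma). Others were those without WT spleen replicates 1, 2 or 3 (0.15, 0.12 and 0.0601) and without WT lung replicates 1 or 2 (0.0557 and 0.0644). Voom on the recovered reads did not call Skil either (0.0713). Calls over all genes went from 208 to 39, 34 and 61 without WT thymus replicates 1, 2 or 3. They went to 125, 105 and 319 without WT spleen replicates 1, 2 or 3, to 162 and 146 without WT lung replicates 1 or 2, and to 131 with voom.

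Thymus against lung did not pass for Skil, at 1.67 (0.53 to 2.80, adjusted p = 0.134 by limma), and passed without WT lung replicate 3 (2.36, adjusted p = 0.00581). The Skil difference was 2.23 without the deviating libraries and 0.54 between those of thymus and lung. Control against WT thymus gave -0.95 (-2.17 to 0.26, adjusted p = 0.85) and anti-CD3 against control 0.72 (-0.61 to 2.05, adjusted p = 1). Both anti-CD3 libraries lay above both control libraries for Skil, as they did for Tgfb1, Tgfbr1, Smad7, Tgfbi and Runx3, and below them for Smad4. None of these differences passed the test, and groups of 2 libraries can easily separate where levels do not differ. How many of all genes separate these groups was not counted, so the separation is not read as a result about the members. Of 7 other repressors and inhibitors, 4 passed the filter in the WT organs and none was called. Ski, the closest relative of Skil, had the highest level, at 108, 120 and 80.6 RPKM in WT thymus, 38.1, 42.1 and 3.88 in spleen, 41.0, 35.4 and 21.9 in lung, 67.5 and 25.9 in Rag-KO + control and 88.2 and 101 in anti-CD3. WT thymus and anti-CD3 libraries of Ski lay above all others, but no comparison passed (thymus against spleen 2.35, adjusted p = 0.189, thymus against lung 1.65, adjusted p = 0.323). Smurf2 and Smurf1, the ubiquitin ligases that Smad7 brings to the receptor, averaged 5.90 and 4.95 RPKM, and Tgif1, a repressor that binds Smad2, 5.01 RPKM over all libraries.

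Tgfbi, an extracellular matrix protein named for its induction by TGF-β (chromosome 13), had the highest level of the members, with a mean of 232 RPKM over all libraries that exceeded 98.6% of genes above 0. It was at 256, 235 and 150 RPKM in WT thymus, 312, 300 and 37.0 in spleen and 290, 238 and 223 in lung, and Rag-KO + control held 231 and 237 and anti-CD3 254 and 256. WT spleen replicate 3 was far below every other library, and groups next to each other in order of mean overlapped. No comparison passed (thymus against spleen 0.45, -1.12 to 2.02, adjusted p = 0.815 by limma, and -0.32 without the deviating libraries).

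Runx3, a transcription factor of CD8 T cell development (chromosome 4), was at 12.7, 12.5 and 5.85 RPKM in WT thymus, 12.7, 10.3 and 1.61 in spleen, 9.62, 7.42 and 5.93 in lung, 10.7 and 5.23 in Rag-KO + control and 12.2 and 16.3 in anti-CD3. The deviating libraries were again the lowest in their groups, and the anti-CD3 libraries lay above both control libraries (log2 difference 0.82, -0.65 to 2.30, adjusted p = 1 by limma). Cbfb, the shared partner of Runx proteins, averaged 34.3 RPKM over all libraries, Runx1 5.72 and Runx2 2.60, and none of the 3 was called in any comparison.

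**Figure D2:**
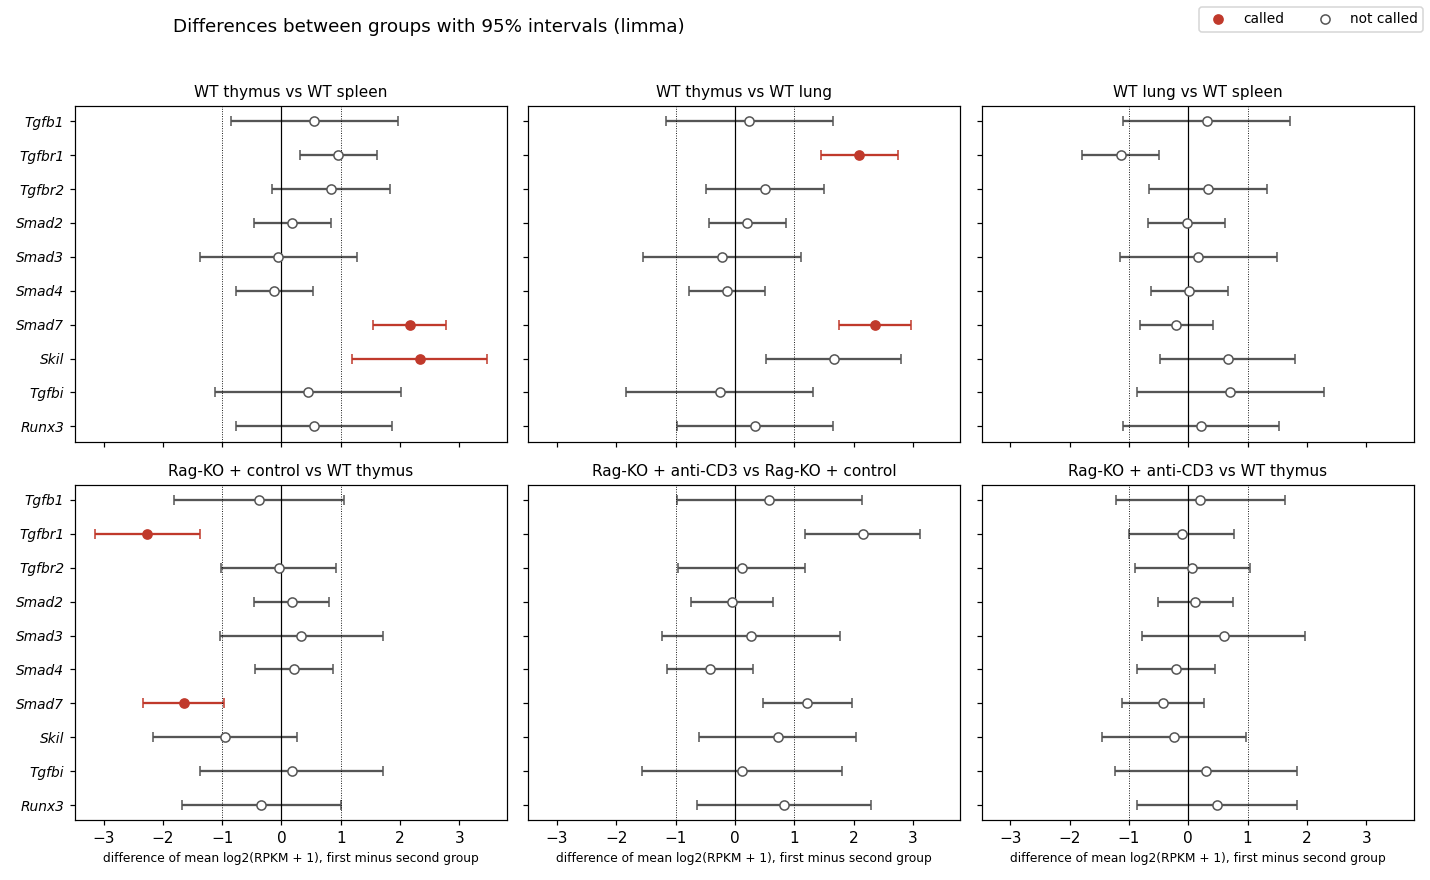
Difference of mean log2(RPKM + 1) between groups (horizontal axes, first minus second group) for the 10 genes, with 95% intervals from limma in 6 comparisons. Filled points mark called genes and dotted lines the limit of 1 in size. Smad7 stands at 2.16 and 2.36 for WT thymus against spleen and lung, and most other intervals include 0.

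The median log2 difference of the members was 0.55 for thymus against spleen and 0.29 for thymus against lung, beside 0.25 and 0.20 over all genes tested. Upper-quartile scaling moved the medians of all genes to 0.03 and 0.05. Under it the called members kept their direction, but the call of Skil for thymus against spleen was lost. For Rag-KO + control against WT thymus the members' median was -0.19 (all genes 0.00), for anti-CD3 against control 0.42 (all genes -0.03) and for anti-CD3 against WT thymus 0.09 (all genes -0.01). These are bulk samples, in which fewer cells of a type and less RNA per cell cannot be told apart.

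Beyond the members, 59 other genes of the pathway were grouped by role, and 32 of them passed the filter in the WT organs. For thymus against spleen 2 were called, both higher in thymus, Itgae and Junb (median of the 32 genes 0.36). For thymus against lung 1 was higher, Itgae, and 4 were lower, Bmp2, a BMP ligand, the endothelial receptors Eng and Acvrl1, and Id3, a target of BMP signals (median 0.19). Of these 5, voom on the recovered reads called 3, without Bmp2 and Id3. Bmp2 was at 0.0517 to 0.0875 RPKM in thymus and 1.38 to 6.86 in lung (log2 difference -1.85, adjusted p = 0.0478 by limma), and Id3 at 0.608 to 2.0 and 4.56 to 13.6. Eng was at 1.95 to 3.28 RPKM in lung and at most 0.0505 in thymus, and Acvrl1 at 1.37 to 6.28 RPKM in lung and at most 0.0776 in thymus. Against spleen, 4 genes were higher in lung, namely Eng, Acvrl1, Id3 and Junb, of which voom called 2, Junb and Eng. Lung libraries also held 11 or 12 of 12 endothelial, epithelial and stromal markers (Eng among them), with summed levels of 60.9 to 127 RPKM against 11.9 to 38.7 in thymus and 1.79 to 22.0 in spleen, and the part of these cells in Eng, Acvrl1 and Id3 was not tested.

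Junb, an AP-1 subunit and early target of several signals, averaged 183 RPKM in spleen and 1721 in WT thymus (log2 difference 3.23, adjusted p = 0.000583 by limma), and 1759, 1830 and 1752 RPKM in WT lung, Rag-KO + control and anti-CD3. Spleen alone stood apart. It was also the organ that was not digested, so that organ and preparation cannot be told apart here, and the cause was not tested. Cdkn2b, a cell cycle inhibitor known as a TGF-β target, was called lower in Rag-KO + control than in WT thymus, at 2.78 and 1.71 RPKM against 9.53, 10.9 and 11.6 (log2 difference -1.86, adjusted p = 0.0225), a call that voom on the recovered reads did not make. Its anti-CD3 libraries held 7.39 and 6.93 RPKM, and its spleen and lung libraries 2.04 to 5.77. For Rag-KO + control against WT thymus Itgae was the other gene called of 36 tested, again lower.

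Of the other targets highest in level, Id2 averaged 478 RPKM in WT thymus, 413 in spleen and 175 in lung, and Nedd9 94.3, 50.1 and 42.3. Cdkn1a averaged 81.4 RPKM in WT thymus and 10.7 in spleen, and its lung libraries held 21.0, 36.0 and 234 RPKM, the last in the deviating library. None of these 3 genes was called. For anti-CD3 against control and against WT thymus 0 of 36 genes were called by limma and 0 by voom. Over all genes limma called 13 and 8 and voom 0 and 3, so these counts of 0 cannot show that the 36 genes did not differ. An unadjusted p under 0.05 by limma was found for 2 and 3 of the 36, and the share of all genes under this limit was not counted. Of 11 genes of the latent complex and its activation, 4 passed the filter and none was called. Nrros, which holds latent TGF-β1 on myeloid cells, was at 84.7, 62.9 and 77.6 RPKM in WT thymus, spleen and lung, Furin, which cleaves the precursor, at 97.6, 57.3 and 59.0, and Itgav at 14.2, 12.8 and 10.8. Thbs1, an activator of the latent form, ranged from 1.36 to 394 RPKM between libraries, and in lung stood at 11.5, 15.8 and 347 RPKM, the last in the deviating library.

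**Figure D3:**
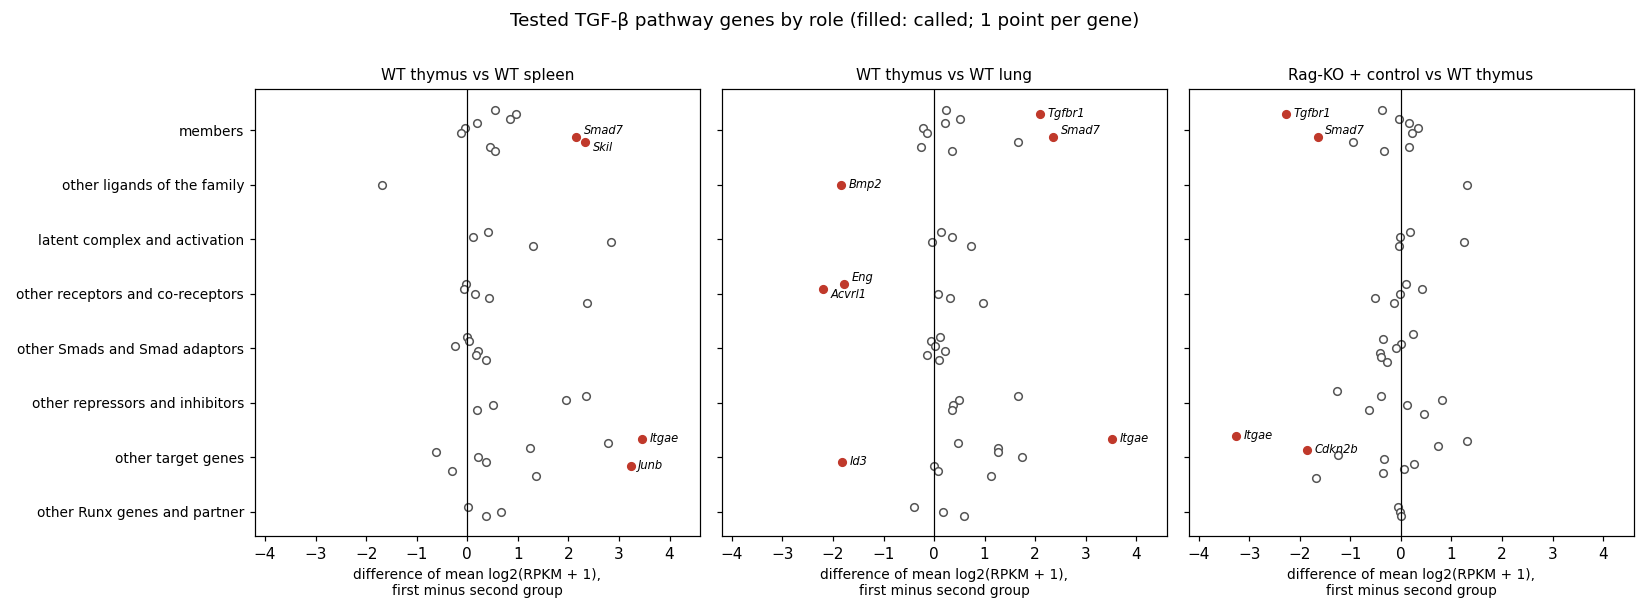
Difference of mean log2(RPKM + 1) (horizontal axes, first minus second group) for each tested gene of the pathway, by role (vertical axis), in 3 comparisons. Filled and named points are called genes, such as Itgae and Junb higher in WT thymus than in spleen and Cdkn2b at -1.86 in Rag-KO + control against WT thymus.

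Itgae, the CD103 chain that the pathway is known to induce, was at 15.5, 12.4 and 5.86 RPKM in WT thymus, at most 0.0890 in spleen, 0 in all lung libraries (0 leaves room for up to 3 reads, as counting error), 0.438 and 0 in Rag-KO + control and 4.45 and 2.28 in anti-CD3, and it was called in the same 3 comparisons as Smad7 (adjusted p = 0.00111, 0.000938 and 0.00127 by limma). Its partner Itgb7 was at 97.6 to 589 RPKM in all libraries and was called in none.

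Markers of thymocytes and T cells, summed, were higher in WT thymus and anti-CD3 libraries than in all others. The summed level of 15 such markers was 66.0, 39.2 and 15.6 RPKM in WT thymus replicates 1 to 3, 3.96, 1.53 and 2.41 in spleen, 1.82, 1.52 and 0.913 in lung, 7.71 and 2.96 in Rag-KO + control and 37.9 and 33.3 in anti-CD3. Thus 13 or 14 markers were above 0 in WT thymus, 14 in anti-CD3, 9 or 12 in control, 5 to 7 in spleen and 4 or 5 in lung. Trac was at 0 in every library, and Dntt, Rag1 and Thy1 in all spleen and lung libraries. Ptcra went against the sum, at 0 to 0.154 RPKM in WT thymus, 0.617 to 0.787 in Rag-KO + control and 0.296 to 0.546 in anti-CD3. Among WT thymus libraries the marker sum spanned 15.6 to 66.0 RPKM while Smad7 spanned 9.37 to 10.9. Tgfbr1 and Itgae had the same order as the sum in these 3 libraries, from 67.6 to 96.8 and from 5.86 to 15.5 RPKM, and Skil had the opposite order, from 25.3 to 17.4. The library with the lowest sum, WT thymus replicate 3, is the deviating library of this group. Tgfb1, Smad3, Smad7, Tgfbi and Runx3 were also lowest there, and Smad2 and Smad4, like Skil, were highest. The part of thymocyte RNA in the levels of Tgfbr1, Smad7, Skil and Itgae was not tested.

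**Figure D4:**
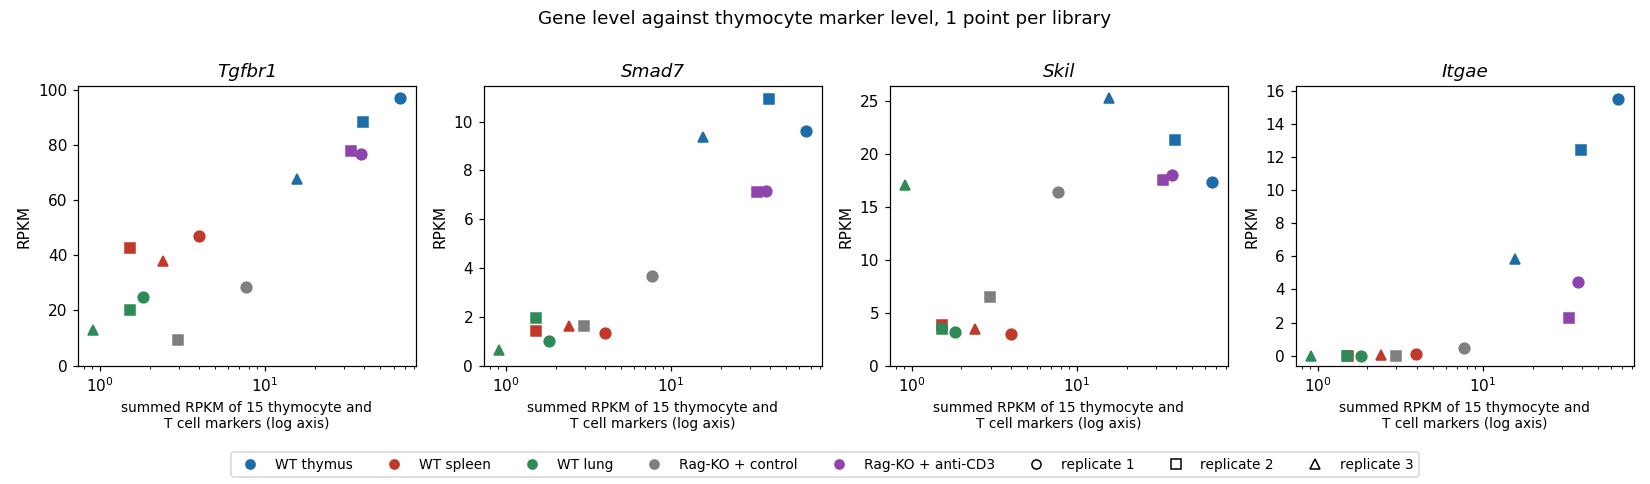
RPKM of Tgfbr1, Smad7, Skil and Itgae (vertical axes, linear) against the summed RPKM of 15 thymocyte and T cell markers (horizontal axes, log scale), with 1 point per library, coloured by group and shaped by replicate number. WT thymus libraries spread from 15.6 to 66.0 on the marker axis, Smad7 there stays between 9.37 and 10.9, and Skil in WT lung replicate 3 reaches 17.0 at a marker sum of 0.913.

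Across the 13 libraries, which share organs, sorts and the deviating set, the members fell into patterns that are given as descriptions. The highest correlations of log2(RPKM + 1) between members were those of Tgfb1 with Runx3 (Pearson r = 0.97), with Tgfbi (0.89) and with Smad3 (0.87), genes that were each low in WT spleen replicate 3. The lowest was that of Tgfbr1 with Smad4 (-0.46). Of all genes tested, those most like Smad7 were B3gnt7 (0.98), Fmnl3 (0.95) and Dnmt3l (0.95), those most like Tgfbr1 were Cnot6l (0.94), Pglyrp2 (0.94) and P2ry13 (0.93), and those most like Skil were Plk3 (0.98), Bcl2a1b (0.97) and Atp2c1 (0.97). Tgfb1 was most like Anxa6, Entpd1 and Triobp (0.985 to 0.987) and Tgfbr2 most like Pik3ap1, Ralb and Adrm1 (0.983 to 0.986). The nearest genes to Smad2 were Tomm70a, Becn1 and 2610002M06Rik (0.94 each), to Smad3 Hnrnpl, Prkca and Arid1b (0.971 to 0.975) and to Smad4 Mkrn1, Bad and Cyb561d1 (0.883 to 0.908). For Tgfbi they were Wbp2, Mvp and Lmf2 (0.984 to 0.992), and for Runx3 Synrg, Anxa6 and Lcp1 (0.975 to 0.981).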

How the data were processed

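RNA of sorted eosinophils was amplified by SMART-seq and read on an Ion Proton sequencer, with 3 libraries for each WT organ and 2 for each treatment of Rag-KO mice. The authors analysed reads in CLC Genomics Workbench against mm10 and deposited RPKM values per gene. Mapping and counting settings, including use of strand, are not given in the sources used here, so overlapping and antisense genes cannot be told apart. Of 41743 genes, 24676 were at 0 in all libraries. Values of 5888 others were whole reads at the annotated gene length (tolerance 0.001) and of 11178 at the smallest length that made them whole, which fixes reads only to within a constant per gene (1 gene gave none). Library totals ran from 4765122 to 6431540 reads. A 0 leaves room for up to 3 reads. This covers counting error only, as no molecular identifiers were used.

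Values were analysed as log2(RPKM + 1), which understates the change of low genes, with limma 3.58.1 in R 4.3.3 (intensity trend, Benjamini-Hochberg adjustment over all genes tested). WT organs were compared in 9 libraries over 9096 genes that reached 1 RPKM in 3 or more of them, and Rag-KO groups in all 13 over 9763 genes that reached it in 2 or more. The scripts were tested on simulated data. The members and lists were chosen with earlier results of these data known. Named were all members, Itgae and Itgb7, other pathway genes that were called, up to 4 per role by mean RPKM, and the 3 genes most like each member.

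Replicate numbers are not tied to mice by the labels. Deviations from group means correlated at 0.30 to 0.57 in all 9 same-number pairs of WT libraries and at -0.53 to 0.42 in the others, so a replicate block was an alternative. The same-number pairs of Rag-KO + control and anti-CD3 libraries correlated at -0.02. With 2 libraries per group, this value cannot show whether the numbers pair these groups. Alternatives were other pseudocounts, filters and scalings, no trend, no fold limit, other sets of libraries, a term for or removal of the deviating libraries (correlation above 0.2 with WT spleen replicate 3), the study's Dunnett rule, and leaving out each library. Added after the data were seen were voom on recovered reads and the removal of WT spleen replicate 3 with Rag-KO + control replicate 2. Where a fit leaves 1 library in a group, it is assumed to vary like the others. Promoter sequences are from RefSeq (GRCm38.p6) and gene positions from GENCODE for mm10.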

Additional observations from a re-analysis of the deposited data

How the results depend on the processing

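The calls of Smad7 for thymus against spleen and lung and of Tgfbr1 for thymus against lung held in every alternative run. For thymus against spleen, 2 members were called, and 1, Smad7, under pseudocounts of 0.1 and 0.5, no filter, an RPKM of at least 5, upper-quartile scaling, quantile normalization, voom, and without both Rag-KO + control replicate 2 and WT spleen replicate 3, as well as 1 to 2 when leaving out each library. Without the deviating libraries the count for thymus against spleen was 3, with Tgfbr1 added. For thymus against lung it went from 2 to 3 (Skil added) with a term for the deviating libraries, without them, and without WT lung replicate 3. For lung against spleen the count went from 0 to 1 (Tgfbr1) with a term for the deviating libraries. For Rag-KO + control against WT thymus the 2 calls became 1 under a pseudocount of 0.1 and no filter, 0 without that same pair of libraries, and 0 to 2 when leaving out each library. For anti-CD3 against control 0 became 1 (Tgfbr1) with the replicate block (adjusted p = 0.0319 by limma) and with the term for the deviating libraries. Those libraries were picked from these same data. Whether the replicate numbers pair these 2 groups cannot be told from their correlation of -0.02, with 2 libraries in each. The count stayed at 0 when leaving out each WT library. Fits of this comparison that leave 1 control library are given above by log2 difference only. The replicate block changed no other call of a member, and over all genes tested it moved the calls from 295 to 462 for thymus against lung, from 106 to 219 for Rag-KO + control against WT thymus and from 13 to 39 for anti-CD3 against control. The study's Dunnett rule on RPKM, with no adjustment over genes, called 2 members for thymus against spleen and 3 against lung. Of 54 log2 differences that were not called, 31 changed sign under some alternative. The cause was not tested. Depth limits Smad7 most, with 15 to 264 reads per library.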
